A study of Capra hircus with 20 samples.

Results

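The 7 genes described here carry the GABA signal from its synthesis to its breakdown and set the chloride gradient on which that signal depends. They are GAD1, GAD2, SLC32A1, SLC6A11, ABAT, SLC12A2 and SLC12A5, and they were taken from the 21071 genes of the expression table by matching each symbol to its NCBI Gene ID. The data come from the hypothalamus of 20 female Jining grey goats, a breed known for early puberty, with 5 goats at each of 4 ages and 1 library depleted of rRNA per goat. The stages are D1 (1 day of age), M2 (60 days), M4 (120 days) and M6 (180 days), and the labels give no treatment. The study was made to describe long noncoding RNAs of this tissue as goats mature sexually. Those RNAs are not analysed here, where the values are those of annotated genes. Each value is an FPKM, the fragments of a gene scaled to the length of its exons and to the mapped reads of the library, so levels can be set side by side between genes. All 7 genes had at least 0.1 FPKM in 20 of 20 libraries and passed the filter on low values, as did 16771 genes in all.

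GABA is made from glutamate in the cytoplasm of inhibitory neurons, loaded into synaptic vesicles, released, taken up again by neurons and astrocytes, and broken down in mitochondria. The direction of its effect depends on chloride inside the target cell, which SLC12A2 (NKCC1) brings in and SLC12A5 (KCC2) takes out. Immature neurons are known for a high import and a low export of chloride, and GABA neurons of the hypothalamus are among the inputs to the neurons that release GnRH.

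The libraries were not alike in the levels of cell type and region markers. Of 14 marker genes of the hypothalamus, between 0 and 12 reached 1 FPKM in a library, with a median of 4.5, and 5 libraries had 2 or fewer. The library of M4 replicate 1 had none. In 5 libraries at least 2 markers of cortex, striatum or thalamus stood at 20 FPKM or more and at 5 or more times their median over the libraries. In D1 replicate 4, M2 replicate 4 and M6 replicate 2 they were genes of striatal neurons, among them the dopamine receptor gene DRD1 at 150.6, 57.2 and 56.4 FPKM. In M4 replicate 1 they included NEUROD6, a gene of cortical neurons, and in M4 replicate 2 they were TCF7L2 and CALB2, which thalamic neurons express. The summed FPKM of 10 oligodendrocyte markers ran from 510.0 to 16379 and that of 12 neuron markers from 182 to 3393. All 20 libraries were kept, and the comparisons below were repeated without those 5 libraries. In tissue of mixed cells, fewer cells of a type and less RNA per cell cannot be told apart.

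GAD1 and GAD2 encode the 2 enzymes that make GABA from glutamate. GAD1 (Gene ID 102190646, ARS1.2 chromosome 2, 110670201 to 110709366) supplies most of the GABA of the cell body, while GAD2 (Gene ID 102178638, chromosome 13, 26030133 to 26095874) is tied to the nerve terminal. GAD1 was at 100.5, 32.2, 85.6, 103 and 33.4 FPKM in D1 replicates 1 to 5, and at 24.7, 12.2, 31.5, 128 and 67.3 FPKM at M2. At M4 it was at 61.3, 26.6, 15.9, 54.4 and 61.6 FPKM, and at M6 at 100.2, 78.1, 5.999, 86.3 and 26.7 FPKM. The highest library was M2 replicate 4 and the lowest M6 replicate 3, and all 4 stages overlapped. The stage means were 70.9 ± 35.4 FPKM at D1 (SD, n = 5), 52.7 ± 46.6 at M2, 44.0 ± 21.3 at M4 and 59.4 ± 40.8 at M6.

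GAD2 was at 98.6, 44.4, 90.6, 166 and 43.7 FPKM in the D1 libraries, and at 20.4, 21.6, 28.1, 146 and 56.3 FPKM in those of M2. It was at 57.4, 24.1, 18.9, 35.4 and 43.5 FPKM at M4, and at 85.6, 115, 8.24, 105 and 20.3 FPKM at M6. The 5 libraries of M4 held the narrowest range, and each of the other stages held both a library above 100 FPKM and a library under 45 FPKM. The stage means were 88.6 ± 50.03 FPKM at D1 (SD, n = 5), 54.4 ± 53.1 at M2, 35.9 ± 15.4 at M4 and 67.0 ± 49.5 at M6. For both enzymes the mean of D1 was the highest and that of M4 the lowest, but neighbouring stages in that order differed by less than their spread.

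SLC32A1 (Gene ID 102180509, chromosome 13, 67128860 to 67134036) encodes the vesicular transporter that fills synaptic vesicles with GABA and glycine. It was the lowest of the 7 genes, with a mean of 6.23 FPKM over the 20 libraries. The D1 libraries were at 10.8, 5.43, 11.7, 10.2 and 5.17 FPKM, and those of M2 at 1.99, 2.64, 10.5, 10.1 and 8.67 FPKM. The M4 libraries were at 0.954, 2.07, 2.02, 5.22 and 6.09 FPKM, and those of M6 at 8.72, 7.39, 0.469, 8.54 and 5.92 FPKM. At M4, 3 of 5 libraries lay below every D1 library and the other 2 lay within the D1 range. The means were 8.65 ± 3.10 FPKM at D1 (SD, n = 5), 6.79 ± 4.15 at M2, 3.27 ± 2.24 at M4 and 6.21 ± 3.40 at M6.

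SLC6A11 (Gene ID 102188093, chromosome 22, 54851759 to 54975671) encodes GAT3, the GABA transporter that astrocytes use for uptake. It was at 14.1, 12.7, 10.99, 6.25 and 9.77 FPKM at D1, and at 23.3, 12.3, 18.9, 12.5 and 21.5 FPKM at M2. It was at 4.10, 17.0, 11.6, 13.8 and 12.1 FPKM at M4, and at 9.93, 6.81, 1.89, 17.7 and 19.2 FPKM at M6. M2 held the highest mean, at 17.7 ± 5.07 FPKM (SD, n = 5), against 10.8 ± 3.01 at D1, 11.7 ± 4.75 at M4 and 11.1 ± 7.32 at M6. Still, 2 of the 5 M2 libraries lay within the D1 range.

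ABAT (Gene ID 100861058, chromosome 25, 7440573 to 7526423) encodes GABA transaminase, the mitochondrial enzyme that breaks GABA down. It was at 71.5, 60.4, 61.5, 101 and 67.7 FPKM at D1, and at 67.2, 80.4, 65.5, 90.7 and 89.3 FPKM at M2. It was at 70.5, 83.9, 69.2, 77.7 and 85.2 FPKM at M4, and at 68.3, 82.4, 38.7, 81.1 and 76.5 FPKM at M6. ABAT was the steadiest of the 7 genes: its highest library was 2.63 times its lowest, and the stage means lay between 69.4 ± 18.0 FPKM at M6 and 78.6 ± 11.9 at M2 (SD, n = 5).

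SLC12A2 (Gene ID 102173836, chromosome 7, 84754233 to 84850017) encodes NKCC1, the cotransporter that carries sodium, potassium and chloride into the cell. It was at 76.8, 113, 109.7, 16.4 and 109 FPKM at D1, and at 38.2, 71.1, 50.6, 42.0 and 71.6 FPKM at M2. It was at 14.0, 22.7, 120.4, 98.6 and 113 FPKM at M4, and at 127, 86.1, 160.4, 29.4 and 65.8 FPKM at M6. The 4 libraries under 30 FPKM were D1 replicate 4, M4 replicates 1 and 2 and M6 replicate 4, so low libraries occurred at 3 of the 4 stages. The means were 85.0 ± 41.1 FPKM at D1 (SD, n = 5), 54.7 ± 15.8 at M2, 73.8 ± 51.4 at M4 and 93.7 ± 51.3 at M6.

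SLC12A5 (Gene ID 102168745, chromosome 13, 74268180 to 74304797) encodes KCC2, the neuronal cotransporter that takes potassium and chloride out of the cell. It was at 9.74, 13.7, 23.4, 12.6 and 7.68 FPKM at D1, and at 8.20, 7.10, 15.2, 13.0 and 16.7 FPKM at M2. It was at 14.7, 32.6, 14.6, 10.7 and 12.1 FPKM at M4, and at 14.5, 6.63, 0.687, 14.7 and 13.5 FPKM at M6. The stages overlapped, and M4 replicate 2 as the highest library and M6 replicate 3 as the lowest were 47.5-fold apart. The means were 13.4 ± 6.07 FPKM at D1 (SD, n = 5), 12.05 ± 4.24 at M2, 17.0 ± 8.93 at M4 and 9.995 ± 6.17 at M6.

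**Figure D1:**
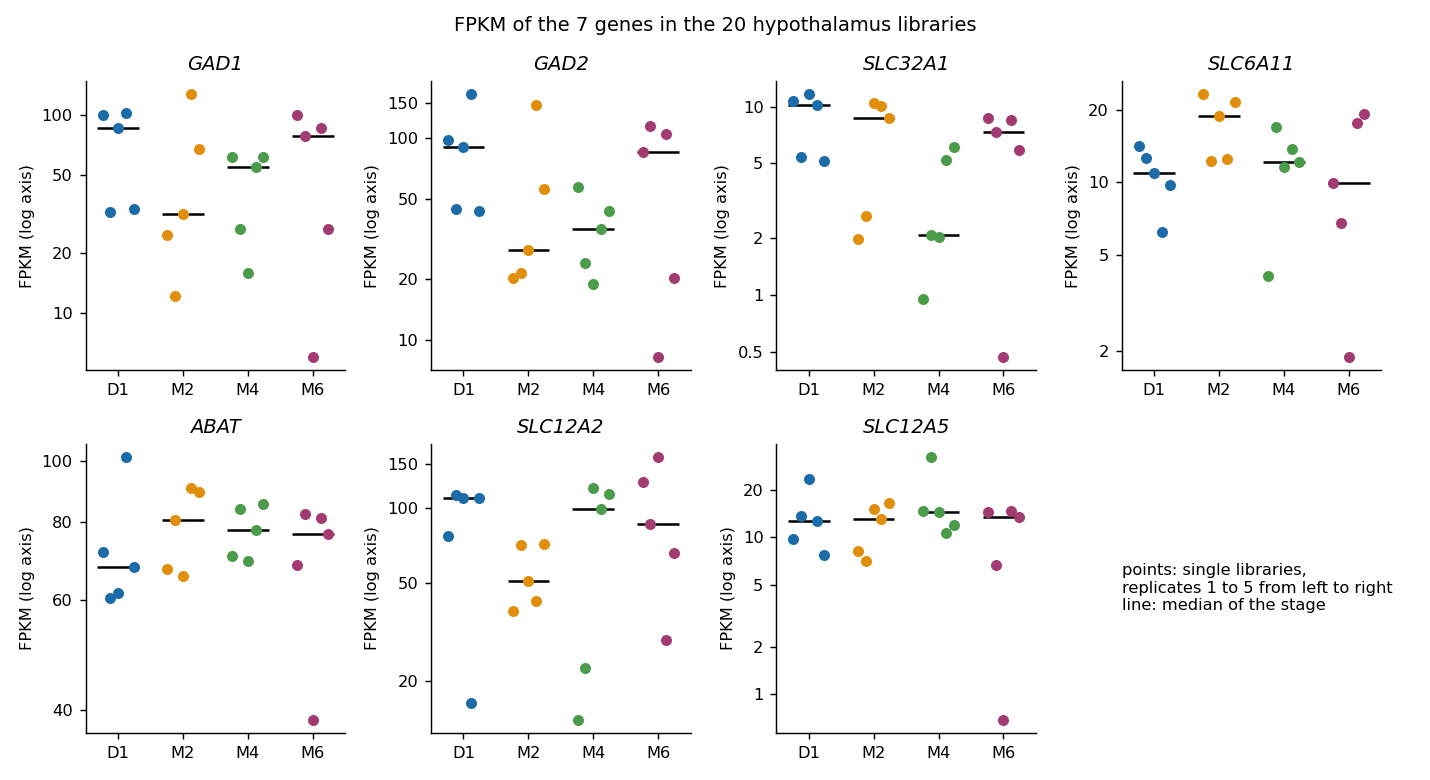
FPKM (log axis) of each of the 7 genes in every library, by stage, with the 5 replicates of a stage from left to right and a line at the stage median. The stages overlap for every gene, ABAT spans 38.7 to 101 FPKM, and M6 replicate 3 is the lowest library for every gene but SLC12A2, for which it is the highest.

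In order of mean FPKM over the 20 libraries the genes were SLC12A2 at 76.8, ABAT at 74.4, GAD2 at 61.5, GAD1 at 56.7, SLC12A5 at 13.1, SLC6A11 at 12.8 and SLC32A1 at 6.23. Within the first 4 of these, and between SLC12A5 and SLC6A11, neighbours differed by less than their SD over the libraries. Most of the variation lay between goats of 1 stage. The SD within stages on the log2 scale was 1.24 for GAD1, 1.18 for SLC32A1, 1.16 for GAD2, 1.08 for SLC12A2, 1.04 for SLC12A5 and 0.83 for SLC6A11, against a median of 0.50 over the 13667 tested genes with a mean of at least 1 FPKM. By that SD, GAD1 stood at the percentile 93.7 of those genes and SLC6A11 at 80.9. ABAT, with an SD of 0.30, stood at the percentile 12.6. The share of the variance that lay between stages ran from 6.58% for GAD1 to 22.6% for SLC32A1, with a median of 18.9% over the same 13667 genes.

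No gene of the 7 was called in any comparison in limma on log2(FPKM + 0.1), where a call took an adjusted p under 0.05 together with a change by 1 or more on the log2 scale in either direction, the thresholds of the study. In M2 vs. D1, 0 of 7 were called, where 0% of the 16771 genes tested were. In M4 vs. D1 the count was 0 of 7 against 0.0537% of all genes, and in M6 vs. D1 it was 0 of 7 against 0.00596%. In M4 vs. M2, M6 vs. M2 and M6 vs. M4, 0 of 7 were called against 0% of all genes. For the mean of the later stages (M2, M4 and M6) vs. D1, 0 of 7 were called against 0.0596% of all genes. Nor did any gene pass limma's F test over the 4 stages, with adjusted p between 0.573 for SLC32A1 and 0.864 for GAD1. In that test 0.00596% of all genes passed, and 0 of 7 against 10.4% of all genes had an unadjusted p under 0.05.

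Without adjustment, 1 of the 49 tests of these genes had a p under 0.05 in limma. SLC32A1 was lower at M4 than at D1 by a log2 fold change of -1.58 (SE 0.68, 95% confidence interval -2.99 to -0.17), and its limma adjusted p was 0.523. Of all genes, 8.71% had an unadjusted p under 0.05 in M4 vs. D1. Of the 5 libraries with 2 or fewer hypothalamus markers at 1 FPKM, 4 were of M4 and 1 of D1. In this comparison the 14 hypothalamus markers had a median log2 fold change of -0.92, with 2 lower at an unadjusted p under 0.05, and the 14 tested transcription factors of GABA neurons had a median of -1.14, where that of all genes was -0.07. The part of the sampled region in the value of SLC32A1 was not tested. In the other comparisons, where none of the 7 did, the share of all genes was 15.6% for M2 vs. D1, 7.41% for M6 vs. D1, 8.68% for M4 vs. M2, 6.14% for M6 vs. M2, 6.87% for M6 vs. M4 and 11.7% for the later stages vs. D1. Without the 5 libraries high in markers of other regions the log2 fold change of SLC32A1 was -0.92, with an adjusted p of 0.79 in limma. No pair of stages, nor D1 against the later stages, was separated without overlap for any of the 7 genes. The share of all genes separated in that way was not computed, so the overlap cannot be called particular to these 7.

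The intervals show how large a difference these libraries leave room for. For the later stages vs. D1, the log2 fold change of GAD1 was -0.67 (95% confidence interval -1.87 to 0.52, limma adjusted p = 0.669). That of GAD2 was -0.999 (-2.12 to 0.12, limma adjusted p = 0.474) and that of SLC32A1 -1.002 (-2.15 to 0.15, limma adjusted p = 0.487). The 3 genes of GABA neurons thus had lower means after D1, and each interval included 0. With the mapping rate of each library as a covariate the signs of GAD1 and GAD2 turned, to 0.46 and 0.022. SLC6A11 differed by 0.16 (-0.66 to 0.98), SLC12A2 by -0.20 (-1.25 to 0.84) and SLC12A5 by -0.23 (-1.24 to 0.79) on the log2 scale, with limma adjusted p of 0.902, 0.900 and 0.884. For ABAT the difference was 0.05 with an interval from -0.29 to 0.40, which leaves out a change as large as 1 on the log2 scale. Its intervals in the 6 comparisons between stages lay between -0.64 and 0.55.

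Among the comparisons between stages, the smallest p of GAD2 came in M4 vs. D1 (log2 fold change -1.23, SE 0.66, limma adjusted p = 0.622) and that of GAD1 in M2 vs. D1 (-0.71, SE 0.70, limma adjusted p = 0.654). SLC6A11 had its smallest p in M6 vs. M2 (-0.997, SE 0.48, limma adjusted p = 0.746) and ABAT in the same comparison (-0.22, SE 0.20, limma adjusted p = 0.808). SLC12A2 had it there as well, with the higher mean at M6 (0.61, SE 0.61, limma adjusted p = 0.820). For SLC12A5 it was M6 vs. M4 (-1.18, SE 0.60, limma adjusted p = 0.745). The log2 fold changes of the 7 genes had a median of -0.41 in M2 vs. D1, -0.40 in M4 vs. D1 and -0.62 in M6 vs. D1, where the medians of all genes tested were -0.07, -0.07 and -0.05. Whatever its sign, the change of all genes had a median size of 0.37, 0.29 and 0.29 in these comparisons. Of the 7 genes, 5, 4 and 6 were lower and 2, 3 and 1 higher. The comparisons with D1 share the 5 D1 libraries. GAD1, GAD2 and SLC32A1 also varied together over the libraries, so the 7 values are not independent.

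**Figure D2:**
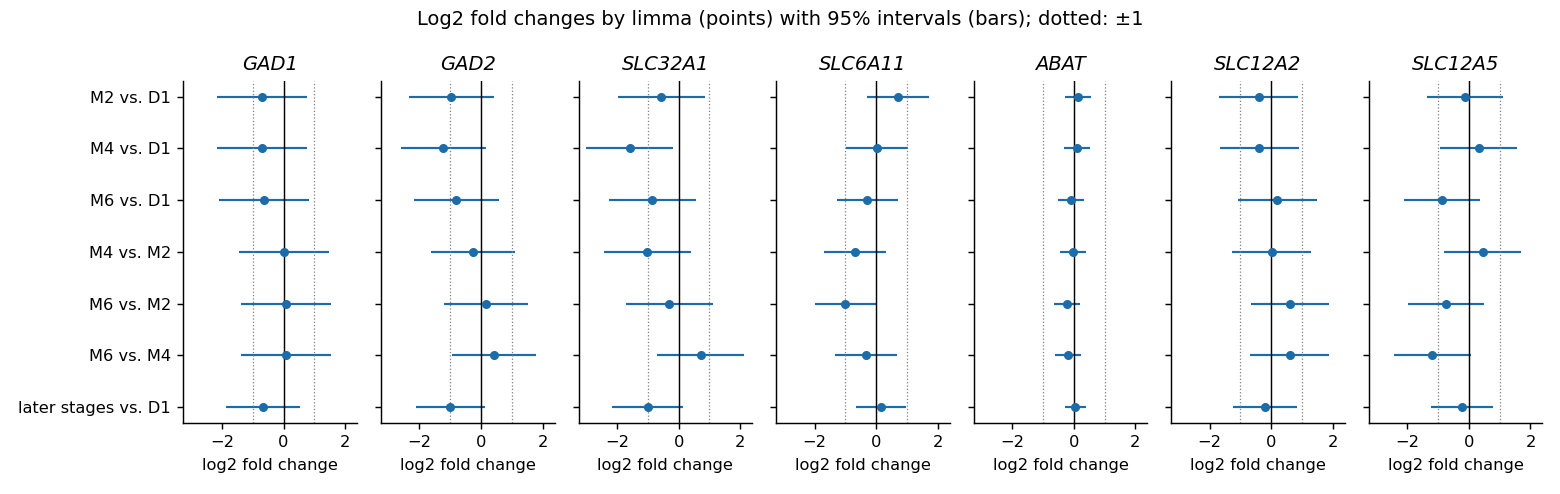
Log2 fold change of each of the 7 genes, on the log2(FPKM + 0.1) scale, in the 6 comparisons between stages and in the later stages vs. D1, with bars for the 95% confidence interval of limma. The interval includes 0 in 48 of 49 tests, the exception being SLC32A1 in M4 vs. D1, and the intervals of ABAT are the narrowest.

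The ratio of SLC12A5 to SLC12A2 within a library sets the RNA of the chloride exporter against that of the importer. This ratio does not depend on how the library was scaled, apart from the 0.1 FPKM added to each level. Both are RNA levels of whole tissue, and whether the same cells carried both was not tested. The values are therefore no measure of chloride transport in neurons. The ratio was 0.128, 0.122, 0.214, 0.774 and 0.071 at D1, and 0.216, 0.101, 0.302, 0.312 and 0.234 at M2. It was 1.05, 1.44, 0.122, 0.109 and 0.107 at M4, and 0.115, 0.078, 0.0049, 0.503 and 0.206 at M6. Only 2 of 20 libraries had a ratio above 1, M4 replicates 1 and 2, while the other 3 libraries of M4 lay below 4 of the 5 libraries of M2. On the log2 scale the ratio was -2.48 ± 1.31 at D1 (SD, n = 5), -2.20 ± 0.66 at M2, -1.77 ± 1.90 at M4 and -3.55 ± 2.52 at M6. Exact two-sided permutation tests of the 6 comparisons between stages gave p between 0.222 for M6 vs. M4 and 0.683 for M2 vs. D1, all with an adjusted p of 0.796 over 7 comparisons. The difference between M6 and M4 was -1.78. For the later stages vs. D1 the difference was -0.03 on the log2 scale, with an exact permutation p of 0.975. With 5 libraries against 5, the smallest p such a test can give is 0.00794. No rise of the ratio from D1 to the later stages was detectable beyond the spread between goats, and the median ratio of the 5 libraries was 0.128 for D1, 0.234 for M2, 0.122 for M4 and 0.115 for M6.

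The ratio of GAD2 to GAD1 varied far less, from 0.652 to 1.76. It was 0.981, 1.38, 1.06, 1.61 and 1.31 at D1, and 0.824, 1.76, 0.893, 1.14 and 0.836 at M2. It was 0.937, 0.905, 1.19, 0.652 and 0.706 at M4, and 0.855, 1.48, 1.37, 1.22 and 0.761 at M6. GAD2 exceeded GAD1 in 4 of 5 libraries at D1 and in 1 of 5 at M4. The difference of M4 from D1 was -0.54 on the log2 scale, with an exact two-sided permutation p of 0.040 and an adjusted p of 0.278 over 7 comparisons. For the later stages vs. D1 it was -0.33 (exact permutation p = 0.124, adjusted p = 0.407). SLC32A1 followed GAD1 less closely, at 0.0172 times its level in M4 replicate 1 and 0.336 times in M2 replicate 3. In M4 replicate 1, the library with no hypothalamus marker at 1 FPKM, GAD1 stood at 61.3 FPKM while SLC32A1 stood at 0.954 FPKM.

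**Figure D3:**
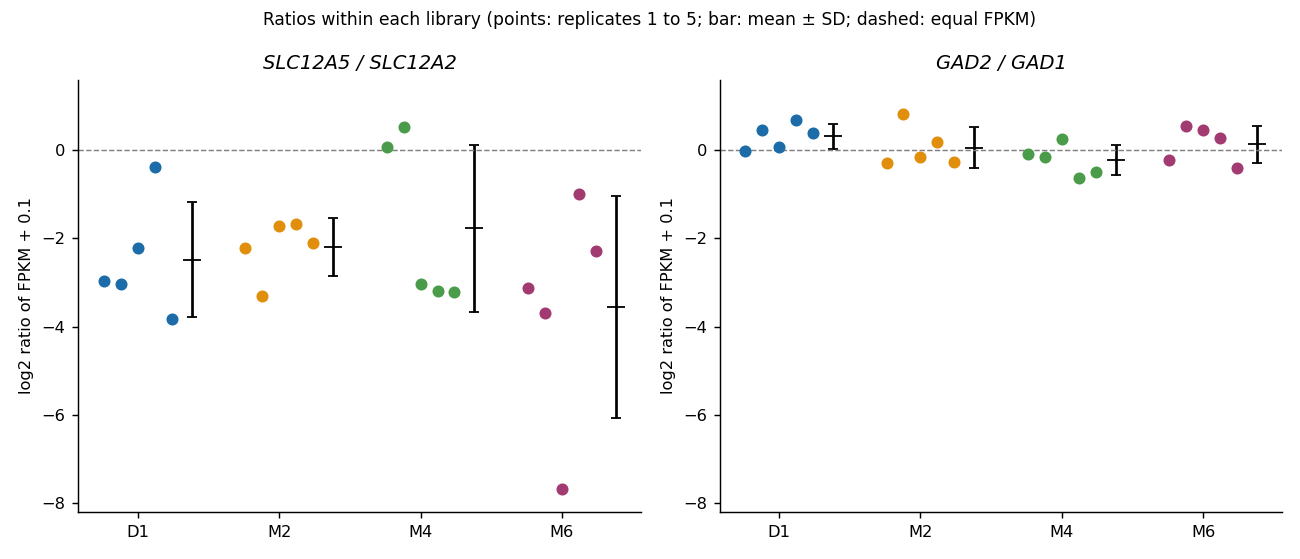
Log2 ratio of SLC12A5 to SLC12A2 (left) and of GAD2 to GAD1 (right), from FPKM + 0.1, in each of the 20 libraries by stage, with bars for the mean ± SD of the 5 libraries and a dashed line at equal levels. The first runs from -7.67 in M6 replicate 3 to 0.52 in M4 replicate 2, and the second only from -0.62 to 0.82.

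Across the 20 libraries the 2 GABA-synthesizing enzymes varied together. Pearson's r of log2(FPKM + 0.1) between GAD1 and GAD2 was 0.939 and Spearman's rho was 0.940, both with a permutation p of 1e-05, the smallest that the 100000 permutations can give, and an adjusted p of 0.00021 over the 21 pairs of genes. The r was 0.950 after the stage means were taken out and 0.932 without M2 replicate 2 and M6 replicate 3, the 2 libraries farthest from the median of GAD1. SLC32A1 was related to GAD1 with r = 0.753 (rho = 0.767, adjusted permutation p = 0.0021 and 0.00115) and to GAD2 with r = 0.726 (rho = 0.681, adjusted permutation p = 0.0021 and 0.00812). These r were 0.601 and 0.591 without the 2 farthest libraries, which were M2 replicate 2 and M6 replicate 3 for GAD1 and D1 replicate 4 and M6 replicate 3 for GAD2. Within stages, after the stage means were taken out, they were 0.777 and 0.691.

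A further 9 pairs had an adjusted permutation p under 0.05 for r, with r from 0.514 for SLC32A1 with SLC12A5 to 0.656 for SLC6A11 with SLC12A5, and r = -0.498 for ABAT with SLC12A2. None of the 9 had an adjusted p under 0.05 for rho, and none kept it without M6 replicate 3. Without that library r was 0.308 for ABAT with GAD1, 0.014 for SLC32A1 with SLC12A5 and -0.029 for ABAT with SLC12A5, which was 0.621 over all 20. For ABAT with SLC12A2, r changed less, to -0.421 (adjusted permutation p = 0.303). Between SLC12A2 and SLC12A5, r was -0.387 (rho = -0.271, adjusted permutation p = 0.130 and 0.470).

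SLC12A2 had the closest relation to a cell type. Its log2 level followed the mean log2 level of the 10 oligodendrocyte markers, among them MAG and MOG of the myelin sheath, with r = 0.959 and rho = 0.896, each with an adjusted permutation p of 0.00077 over the 77 relations of 7 genes to 11 marker lists. The r was 0.977 with the stage means taken out. It was 0.954 without the 2 libraries farthest from the median, M4 replicate 1 and M6 replicate 4, and between 0.945 and 0.966 with any 1 library left out. The libraries were not spread evenly: the 4 libraries of SLC12A2 under 30 FPKM were the 4 lowest in summed oligodendrocyte markers, at 1089.6 in D1 replicate 4, 510.0 and 1078 in M4 replicates 1 and 2 and 771 in M6 replicate 4. Over the other 16 libraries, whose sums ran from 2333 to 16379, r was 0.882 (adjusted permutation p = 0.00154). Without the 5 libraries high in markers of other regions it was 0.896. All 10 markers were above 0 in every library.

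By stage, the summed oligodendrocyte markers ranged from 1089.6 to 16209 at D1, from 2333 to 7931 at M2, from 510.0 to 10187 at M4 and from 771 to 16379 at M6. The stages with a wide range of these markers, D1, M4 and M6, were the stages with a wide range of SLC12A2, and M2 had the narrowest range of both. M6 replicate 3 was the highest library in both measures. With oligodendrocyte progenitor markers SLC12A2 had r = 0.701 (adjusted permutation p = 0.0192) and rho = 0.412 (adjusted permutation p = 0.389). That r fell to 0.034 without the 4 libraries low in oligodendrocyte markers. With the markers of cortex, striatum and thalamus it had r = -0.623 and rho = -0.686 (adjusted permutation p = 0.0625 and 0.0375), and r was -0.505 without D1 replicate 4 and M2 replicate 4. Which cells carried the SLC12A2 RNA was not tested.

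**Figure D4:**
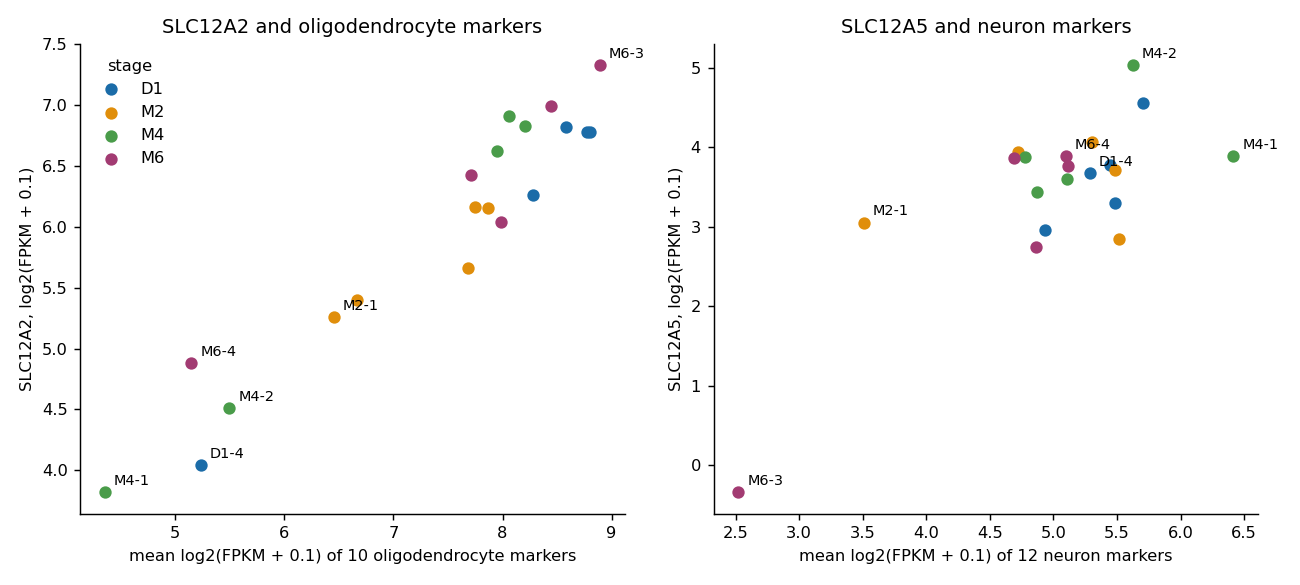
SLC12A2 against the oligodendrocyte markers and SLC12A5 against the neuron markers, each point a library coloured by stage, as log2(FPKM + 0.1) and the mean of that value over the marker list. SLC12A2 lies along a line (r = 0.959), while for SLC12A5 r is 0.758, and 0.294 without M2 replicate 1 and M6 replicate 3 at the low end.

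SLC12A5 was set against neuron markers in the same way. Over the 20 libraries r was 0.758 and rho 0.380, with adjusted permutation p of 0.0588 and 0.389. The r was 0.715 with the stage means taken out, and between 0.393 and 0.800 with any 1 library left out. The 12 neuron markers summed to 340.4 FPKM in M2 replicate 1 and 182 in M6 replicate 3, where the other libraries lay between 855 and 3393. Without both of these r was 0.294, so the relation rests on few libraries. In M6 replicate 3, SLC12A5 was at 0.687 FPKM, SLC32A1 at 0.469, GAD1 at 5.999 and GAD2 at 8.24, each the lowest of 20. The low ratio of SLC12A5 to SLC12A2 in that library, 0.0049, therefore stood beside the lowest neuron sum and the highest oligodendrocyte sum of the series. The 2 libraries with a ratio above 1, M4 replicates 1 and 2, had the 2 highest neuron sums, 3393 and 2286, and were among the 4 lowest in oligodendrocyte markers. The part of cell makeup in the ratio was not tested beyond these values.

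Of the other relations to marker lists, GAD1 had r = 0.547 and GAD2 r = 0.546 with neuron markers (adjusted permutation p = 0.101 and 0.0972), which became 0.1002 and 0.139 without M2 replicate 1 and M6 replicate 3. With 7 markers of immature neurons, GAD2 had r = 0.568 and rho = 0.591 (adjusted permutation p = 0.0972 and 0.11), and GAD1 r = 0.491 and rho = 0.567 (adjusted permutation p = 0.157 and 0.116). Without M4 replicates 2 and 3 these r were 0.493 and 0.403. With the markers of cortex, striatum and thalamus, r was 0.602 for GAD2 and 0.603 for ABAT (adjusted permutation p = 0.0625 for each), and it was 0.393 and 0.441 without D1 replicate 4 and M2 replicate 4. Those 2 libraries, high in striatal genes, were also the 2 highest in GAD2, at 166 and 146 FPKM. The striatum is known for its many GABA neurons, but the part of striatal tissue in these GAD2 values was not tested. Without the 5 libraries high in markers of other regions, the log2 fold change of GAD2 in later stages vs. D1 was -1.03 (limma adjusted p = 0.419). Over all libraries it was -0.999. The 5 libraries included D1 replicate 4 and libraries of each later stage, so this value does not measure the part of striatal tissue. SLC6A11 had r = 0.380 with astrocyte markers (rho = 0.320, adjusted permutation p = 0.307 and 0.492). With microglia markers it had r = 0.565 and rho = 0.671 (adjusted permutation p = 0.101 and 0.0375), and r was 0.361 without M2 replicate 1 and M4 replicate 1.

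**Figure D5:**
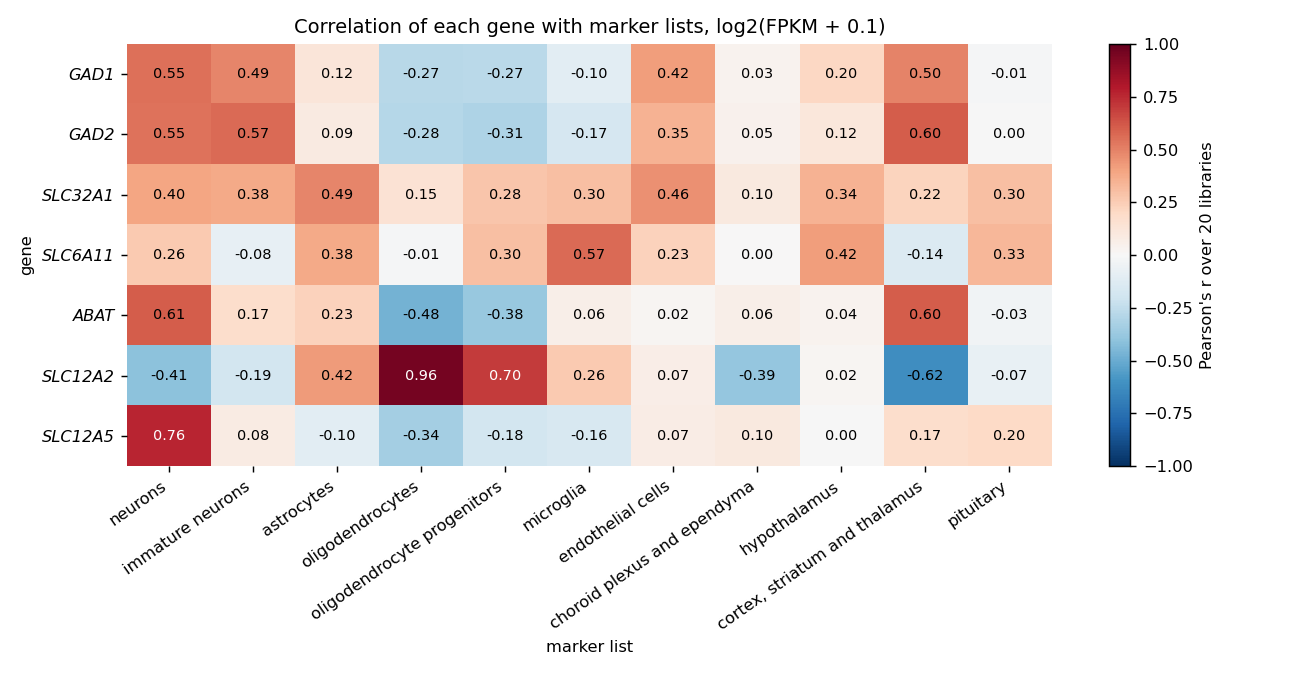
Pearson's r over the 20 libraries between each of the 7 genes (log2(FPKM + 0.1)) and the mean log2 level of each of 11 lists of marker genes. The strongest cell is SLC12A2 with oligodendrocyte markers at 0.959, followed by SLC12A5 with neuron markers at 0.758.

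The genes whose levels were most like those of each gene over the 20 libraries were looked up among 12363 named genes with a mean of at least 1 FPKM. For GAD1 they were GAD2 (r = 0.939), SLC7A14 (0.846) and STEAP2 (0.845), and for GAD2 they were GAD1, STEAP2 (0.863) and FAM216A (0.850). For SLC32A1 they were HSF2BP (0.844), CACNA2D2 (0.832), a subunit of voltage-gated calcium channels, and PYGB (0.804), the brain form of glycogen phosphorylase. SLC6A11 was most like ITGA3 (0.904), CMIP (0.897) and PI4KA (0.896), and ABAT most like SNX11 (0.845), PTPRN (0.834) and OSCP1 (0.831). SLC12A2 had the closest companions, TBC1D12 (0.987), HHIP (0.978) and FAM107B (0.974). SLC12A5 was most like SPTAN1 (0.929), a spectrin of the membrane skeleton, SYT3 (0.928), a synaptotagmin, and KCNC1 (0.922), a potassium channel of fast-firing neurons. These r are descriptions, taken over libraries that differ in their levels of cell type markers.

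No gene of the wider pathway was called by limma in any of 5 lists and 7 comparisons, and in no list and comparison did more than 3 genes have an unadjusted p under 0.05 in 1 direction. The list of GABA metabolism and uptake beside the 7 had 14 matched genes, among them the GABA receptor genes GABRR1, GABBR1 and GABBR2. None of the 14 had an unadjusted p under 0.05 in M2 vs. D1, M4 vs. D1, M6 vs. D1, M4 vs. M2 or the later stages vs. D1. In those comparisons between 7.41% and 15.6% of all genes had such a p. In M6 vs. M4, 1 was higher (ALDH9A1) and 2 were lower (GABBR1 and GABBR2) at that threshold, where 6.87% of all genes had such a p. In M6 vs. M2, 1 was higher (ALDH9A1) and 1 lower (GLS2), against 6.14% of all genes. ALDH9A1, an aldehyde dehydrogenase that can form GABA from putrescine, was at 29.1 ± 1.66 FPKM at D1 and 23.97 ± 4.46 at M2 (SD, n = 5), with a log2 fold change of -0.30 (limma adjusted p = 0.426).

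Of 25 matched cotransporters of cations and chloride and their regulators, 3 had an unadjusted p under 0.05 upward and 1 downward in M2 vs. D1. SLC12A3, better known from the kidney, was at 0.202 ± 0.199 FPKM at D1 (SD, n = 5) and 1.86 ± 2.06 at M2 (log2 fold change 2.34, limma adjusted p = 0.145). SLC12A1, the kidney relative of NKCC1, was at 1.33 ± 0.631 and 5.02 ± 2.82 FPKM (1.83, limma adjusted p = 0.148). SLC12A9 was at 1.62 ± 0.301 and 4.29 ± 2.46 FPKM (1.19, limma adjusted p = 0.221). CAB39, a scaffold of the kinases that act on these cotransporters, was at 72.7 ± 8.03 and 53.9 ± 16.5 FPKM (-0.48, limma adjusted p = 0.257). None passed, and 15.6% of all genes had an unadjusted p under 0.05 in that comparison. At the same threshold 2 were higher and 3 lower in M4 vs. M2, against 8.68% of all genes. In M6 vs. M2, 1 was higher and 1 lower, against 6.14%, and 1 was lower in M6 vs. M4, against 6.87%. M6 vs. D1 and the later stages vs. D1 each had 1 higher, against 7.41% and 11.7% of all genes. M4 vs. D1 had 0, against 8.71%.

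Of the 8 genes of the inhibitory postsynaptic scaffold, 2 had an unadjusted p under 0.05 upward and 0 downward in M2 vs. D1. Of all genes, 15.6% had such a p there. In the later stages vs. D1, 2 were higher at that threshold, against 11.7% of all genes. In M4 vs. D1 1 was higher, against 8.71%, and in M6 vs. M2 1 was lower, against 6.14%. SHISA7, an auxiliary protein of GABA-A receptors, was at 2.09 ± 0.630 FPKM at D1 and 5.66 ± 3.09 at M2 (SD, n = 5), with a log2 fold change of 1.27 and a limma adjusted p of 0.182. Of 14 tested transcription factors of GABA neurons, 1 was lower at that threshold at M2 than at D1 and 1 at M4 than at either D1 or M2. The shares of all genes were 15.6% for M2 vs. D1, 8.71% for M4 vs. D1 and 8.68% for M4 vs. M2. In M6 vs. M4, 2 were higher and 1 lower, against 6.87% of all genes. SP9 was at 1.72 ± 1.297 FPKM at D1 and 0.622 ± 0.881 at M2 (log2 fold change -1.90, limma adjusted p = 0.275). ISL1, at 1.33 ± 1.17 FPKM at D1, was at 0.00921 ± 0.0206 at M4 (-2.88, limma adjusted p = 0.438).

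The vesicular glutamate transporters, which mark excitatory neurons, showed how far single libraries set the means at M4. SLC17A7, the form of the cortex, reached 68.0 FPKM in M4 replicate 1, and its median at M4 was 0.153 FPKM. SLC17A6, the form of hypothalamus and thalamus, reached 231 FPKM in M4 replicate 2, with a median of 15.2 FPKM at M4. Neither these 2 genes nor SLC17A8 had an unadjusted p under 0.05 in any comparison, where the share of all genes ran from 6.14% to 15.6%.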

How the data were processed

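Total RNA of 20 hypothalamic samples was depleted of rRNA and sequenced as strand-specific libraries of paired reads. Per the study's methods and processing notes, the authors aligned reads to ARS1.2 with HISAT2 2.0.5, assembled transcripts with StringTie 1.3.3b and deposited FPKM values per gene. Of 375 ratios of low values examined, 17.1% lay within 2% of a whole number, so read counts were not recovered. The depth behind each value is unknown and no counting interval is given. Summed FPKM was 260199 to 377479 per library. Gene IDs were named from RefSeq, where 20610 of 21071 matched.

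Values were log2-transformed with a pseudocount of 0.1 FPKM. Genes were kept when at least 5 libraries reached 0.1 FPKM, and fold changes of low genes are understated on this scale. All 20 libraries entered 1 limma 3.58.1 fit (R 4.3.3; a group per stage, trended variances), and p was adjusted by Benjamini-Hochberg over all genes tested. Each goat gave 1 library. Ratios were compared by exact two-sided permutation tests and correlations by 100000 permutations in Python 3.11.15 (pandas 2.3.3, numpy 2.4.6, scipy 1.17.1, matplotlib 3.10.9). The scripts were tested on simulated data. The text names the 7 genes, the 3 genes most like each, and from each of 5 wider lists at most 4 genes with the smallest adjusted p, some of which are not reported here. The genes, the lists and the tests were chosen with earlier results of these data known, and the alternatives that leave out libraries by their markers were added after the data were seen. Alternatives covered pseudocount, filter, normalization, variance model, library weights, a replicate block, the mapping rate of the study as a covariate, the libraries compared only, and each library left out.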

Additional observations from a re-analysis of the deposited data

Results flagged for a closer look

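Of 36 groups of 5 libraries examined with Dixon's test, in which chance marks about 1 in 20, 3 held a library far from the others. The gaps of these 3 were taken on FPKM, not on the log2 scale of the other tests, and a log2 scale can mark other libraries. M6 replicate 3, the lowest library for every gene but SLC12A2, was not among those marked. GAD2 in M2 replicate 4 was at 146 FPKM (145.748), with the other M2 libraries between 20.4 and 56.3 FPKM. The gap was 0.713 of the range, against a critical value of 0.71. ABAT in D1 replicate 4 was at 101 FPKM (101.482), with the other D1 libraries between 60.4 and 71.5 FPKM and a gap of 0.73 of the range. SLC12A5 in M4 replicate 2 was at 32.6 FPKM, with the other M4 libraries between 10.7 and 14.7 FPKM and a gap of 0.817. All 3 libraries were among the 5 high in markers of cortex, striatum or thalamus: DRD1 was at 57.2 FPKM in the first and 150.6 in the second, and CALB2 at 247 FPKM in the third. The part of these regions in the 3 values was not tested.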

How the results depend on the processing

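None of the 7 genes was called under any alternative, and the lowest adjusted p was 0.195, with library quality weights. The replicate numbers did not pair the goats: over 30 pairs of libraries with the same number the median correlation of their deviations was -0.011, from -0.246 to 0.43, and 7 pairs correlated best with their own number. With the replicate number as a block, 7 genes were called in M4 vs. D1, 13 in the later stages vs. D1 and 0 in M6 vs. D1, and SLC32A1 in M4 vs. D1 stayed at -1.58 (limma adjusted p = 0.533). The block changed no call of the 7 genes.

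The number of genes called over the whole table was small and moved with the settings, and the cause was not tested. In M2 vs. D1 it was 0, and 2 with a pseudocount of 1 FPKM, 148 with library weights, and 1 each without a filter, without a variance trend, with only the libraries compared and without the 5 libraries high in markers of other regions. In M4 vs. D1 it was 9, and 5 with quantile normalization or median-ratio scaling, 65 with weights, 3 with the mapping rate as a covariate, 0 with that and the block or with only the libraries compared, and 2 without the 5 libraries. In M6 vs. D1 it was 1, and 2 without a filter or with median-ratio scaling, 3 without a trend, 95 with weights, 21 without the 5 libraries and 0 under the other alternatives that moved it, among them either pseudocount (1 or 0.01 FPKM), a mean of at least 1 FPKM, the block and the mapping rate. It was 1 in M4 vs. M2 and M6 vs. M2 with a pseudocount of 1 FPKM, 1 in M6 vs. M2 with the mapping rate, and 1 in M6 vs. M4 without the 5 libraries, each 0 otherwise. For the later stages vs. D1 it was 10, and 3 with quantile normalization, 1 with median-ratio scaling, 6 without a trend, 223 with weights, 0 with the mapping rate with or without the block, and 48 without the 5 libraries. With 1 library left out the count ranged from 0 to 10 in M2 vs. D1, from 3 to 33 in M4 vs. D1, from 0 to 20 in M6 vs. D1, from 0 to 3 in M4 vs. M2, 0 to 1 in M6 vs. M2 and 1 to 34 in the later stages vs. D1.

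No value whose sign turned was called. Among them was GAD2 in the later stages vs. D1, at -0.999. Its limma adjusted p of 0.474 was the lowest of the 7 genes in that comparison. With the mapping rate as a covariate the log2 fold change of GAD1 became 0.46 in the later stages vs. D1 and 0.71 in M2 vs. D1 (0.43 and 0.67 with the block added), that of GAD2 in the later stages 0.022 (0.097) and that of SLC12A5 0.77 (1.16). The lower means of GAD1 and GAD2 after D1 therefore do not hold their sign under that covariate. With quantile normalization SLC12A2 in the later stages was at 0.028. Leaving out 1 library moved the later stages vs. D1 from -0.0067 to 0.18 for ABAT, -0.40 to 0.033 for SLC12A5 and -0.025 to 0.33 for SLC6A11. The log2 ratio of SLC12A5 to SLC12A2 without the 5 libraries was -0.14 in M4 vs. D1, -0.815 in M4 vs. M2 and 0.023 in the later stages vs. D1, and the last was 0.037 with a pseudocount of 1 FPKM. With 1 library left out that ratio ranged from -0.055 to 0.81 in M2 vs. D1, -0.14 to 0.80 in M4 vs. M2 and -0.36 to 0.50 in the later stages vs. D1, and the ratio of GAD2 to GAD1 in M6 vs. M2 from -0.032 to 0.26. The relations of SLC12A2 with oligodendrocyte markers and of GAD1 with GAD2 held under every alternative run, and r of ABAT with SLC12A5 was -0.029 without M6 replicate 3.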
